A study of Mus musculus with 8 samples.

Results

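Dorsal skin of mice treated with tieghemelin was compared with dorsal skin of mice treated with maslinic acid, on 2 arrays for each compound, which are 4 of the 8 arrays in the study. The 4 were chosen by their titles alone, and no array from untreated or minoxidil-treated skin entered the comparison. All mice were C3H males, 7 weeks old at the start, which spent 7 days settling in before 8 were placed at random in each of 4 groups. The back was trimmed and cleared with depilatory cream, and 1% tieghemelin or 1% maslinic acid was applied to it every day for 20 days, so the pair was matched for dose and time. The labels name no transgene, deletion or other agent in either group. They also do not tie an array to a mouse, so each array may hold 1 animal or a pool, and the p-values below measure only the spread between arrays, which may be technical.

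Maslinic acid is a pentacyclic triterpene acid of plants such as the olive. Tieghemelin is a triterpene saponin, in which a triterpene core carries sugars, so the compounds differ by the presence of sugar groups among other features. Depilation of resting skin makes hair follicles start a new growth phase together, in which matrix cells divide and build the hair shaft from keratins and keratin-associated proteins. In mice the skin also includes a thin sheet of striated muscle, the panniculus carnosus, beneath the dermal fat, so a piece of back skin can hold more or less of it. In whole skin, fewer cells of a type and less RNA per cell cannot be told apart.

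Expression was measured on Clariom S Mouse arrays as log2 signal, and 22206 probe sets that are not array controls were compared. Of these, 19572 carried 1 gene symbol and 2634 carried none. Background was taken on each array as the median of 23 probe sets built to match no mouse sequence, which lay between 6.96 and 7.08 on the log2 scale on the 4 arrays. Between 77.7% and 80.3% of probe sets were above it. Being above this background is a weak sign of expression: 1334 of 1429 probe sets for olfactory, vomeronasal and trace-amine receptors, most of which are silent outside sensory tissue, were above it on both arrays of their higher group, as were 17392 of all 22206. The keratins of the basal and suprabasal epidermis, which define skin, were above it on every array. Krt14, the basal layer keratin, read 8.80 and 9.38 after tieghemelin and 9.28 and 9.14 after maslinic acid. Krt10, made as keratinocytes leave that layer, read 9.90 and 10.20 after tieghemelin and 10.35 and 10.57 after maslinic acid.

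The arrays of one compound were no more alike than arrays of different compounds. The pair with the fewest differences crossed the treatments: tieghemelin array 1 and maslinic acid array 2 were at least 1.7-fold apart at 1623 probe sets (7.31%). The tieghemelin arrays differed from each other that much at 2182 probe sets (9.83%), and the maslinic acid arrays at 2691 (12.1%). The 4 pairs across treatments ranged from 1623 to 2818 probe sets. Pearson correlations across probe sets, which are not independent replicates, ranged from 0.949 to 0.966 over all 6 pairs.

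**Figure D1:**
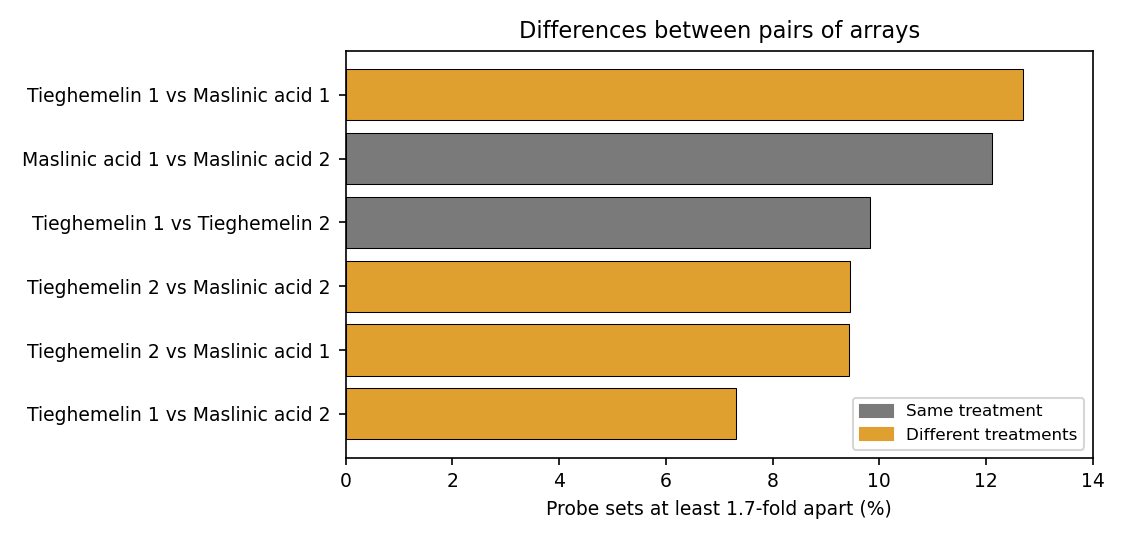
Share of the 22206 probe sets that were at least 1.7-fold apart (horizontal axis, percent) for each of the 6 pairs of arrays, with grey bars for arrays of the same treatment and yellow bars for arrays of different treatments. The shortest bar (7.31%) joins tieghemelin array 1 to maslinic acid array 2, and the bar within maslinic acid (12.1%) is longer than 3 of the 4 bars across treatments.

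No gene passed correction for multiple testing. In limma, the smallest p-value adjusted over all probe sets was 0.999, so 0 probe sets had an adjusted p under 0.05, and the adjusted p was 0.999 for every gene described below. Without moderation of the variance, the linear model also gave 0, with 922 at an unadjusted p of at most 0.05. In limma a p of at most 0.05 before adjustment was reached by 703 probe sets (3.17%), under the 5% that the threshold admits when no probe set differs. The study called a gene differentially expressed at 1.7-fold or more with a p of 0.05 or less before adjustment, and these limits were met by 363 probe sets (1.63%). Of these, 165 (0.743%) were higher with tieghemelin and 198 (0.892%) were lower. They are described here as differences between these 4 arrays. An exact permutation test of a single gene, 2 arrays against 2, cannot give a two-sided p below 0.33. The intervals had a median half-width of 0.66 on the log2 scale, or 1.58-fold. At 5681 probe sets (25.6%) the 95% interval lay wholly within 1.7-fold either way, so for those a larger difference fell outside the interval, while at the others the interval included it.

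Genes of skeletal muscle gave the largest differences, and all of those that met the study's limits were lower with tieghemelin. A list of 53 sarcomere genes, which encode the contractile filaments, had 43 lower and 10 higher members, with a median log2 difference of -0.53. The median over all probe sets was 0.0052. Of the 53, 11 met the limits, all lower, against the 0.892% of all probe sets that met them in that direction. In a second list of 44 genes for calcium release, calcium uptake and energy supply in muscle, 33 were lower and 3 met the limits, again all lower, with a median of -0.36. Together the lists hold 96 probe sets, of which 34 were lower without overlap between the groups and 6 were higher without overlap, while 14.9% and 15.7% of all probe sets did so. The gene lists, here and below, were chosen with earlier results of these data known. Their shares are therefore a description and no independent support.

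The difference in muscle genes was greater against maslinic acid array 1 than against array 2. That these arrays differ in muscle genes was known before the comparison, so the split is described only. The sarcomere genes summed to a log2 signal of 14.86 and 15.34 on the tieghemelin arrays, 17.78 on maslinic acid array 1 and 15.05 on maslinic acid array 2. By that sum, maslinic acid array 2 lay between the tieghemelin arrays. Against maslinic acid array 1 alone the median difference of the sarcomere list was -0.80, and against maslinic acid array 2 alone it was -0.16, with 34 of 53 members lower. In the calcium and energy list the same medians were -0.61 and -0.07. All 14 muscle genes at the study's limits were at least 1.7-fold lower than maslinic acid array 1, with a median of -3.13. Of the 14, 9 were also at least 1.7-fold lower than maslinic acid array 2, and the median against that array was -0.89. How much muscle each piece of skin contained was not tested.

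Among the thin filament genes, Tnnt3, the fast-twitch troponin T that ties the calcium switch to tropomyosin, had the largest difference of any gene. It read 8.68 and 6.94 after tieghemelin and 13.88 and 9.82 after maslinic acid. The tieghemelin arrays were both below both maslinic acid arrays, and the group means were 16.5-fold apart, a log2 difference of -4.04 (SE 1.15, 95% interval -6.71 to -1.37, n = 2 arrays each). The difference was -6.07 against maslinic acid array 1 and -2.02 against array 2. Acta1, skeletal muscle actin, read 9.69 and 8.97 after tieghemelin and 12.21 and 10.45 after maslinic acid. Its 95% interval was -3.26 to -0.73, and its log2 difference was -2.88 against maslinic acid array 1 alone and -1.12 against maslinic acid array 2 alone. Tpm2, a tropomyosin that lies along the actin filament, read 9.10 and 8.89 after tieghemelin and 11.41 and 9.84 after maslinic acid, a difference of -1.63. Neb, the giant protein that runs along the thin filament, was not above background on either tieghemelin array, at 6.85 and 6.18, and above it on both maslinic acid arrays, at 9.90 and 7.47. By group means, its signal was therefore at least 3.23-fold lower with tieghemelin. Lmod2, which nucleates and lengthens actin filaments, was also not above background with tieghemelin and was at least 2.01-fold lower. These bounds compare the mean of the brighter group with the background medians of the dimmer group's arrays. They are not limits of the 95% intervals, here or for other genes below, and single arrays can lie closer. Against maslinic acid array 2 alone, the log2 differences were -0.96 for Neb and -0.79 for Lmod2.

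The thick filament and scaffold genes that met the limits were also highest on maslinic acid array 1, with maslinic acid array 2 next. Myh8, the perinatal myosin heavy chain, read 11.20 and 10.38 after tieghemelin and 14.80 and 11.73 after maslinic acid, a log2 difference of -2.48. Myh1, the heavy chain of fast IIx fibres, read 8.59 and 8.62 after tieghemelin and 12.06 and 9.88 after maslinic acid. Its tieghemelin arrays were 0.03 apart and its maslinic acid arrays 2.18 apart, and the group difference was -2.37. Ttn, the titin spring that spans the sarcomere, differed by -2.17, at 9.76 and 9.66 with tieghemelin against 13.29 and 10.47 with maslinic acid. Mybpc1, the slow-type myosin-binding protein C, differed by -1.13, Myom2, an M-band protein, by -0.83, and Mybpc2, the fast-type myosin-binding protein C, by -0.77.

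Car3, Trdn and Atp2a1, muscle genes outside the filaments, met the limits. Car3, a carbonic anhydrase abundant in muscle and fat, read 8.27 and 7.36 after tieghemelin and 11.96 and 9.39 after maslinic acid, a log2 difference of -2.86 (SE 0.74, 95% interval -4.57 to -1.14). Its difference from maslinic acid array 2 alone was -1.57. Trdn, the triadin that anchors the calcium release complex, read 10.23 and 9.44 after tieghemelin and 13.26 and 10.31 after maslinic acid. Its nearest arrays were 0.085 apart, and its difference of -1.95 narrowed to -0.48 against maslinic acid array 2. Atp2a1, the pump that returns calcium to the sarcoplasmic reticulum of fast fibres, read 9.39 and 8.14 after tieghemelin and 10.98 and 9.98 after maslinic acid, a difference of -1.72.

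**Figure D2:**
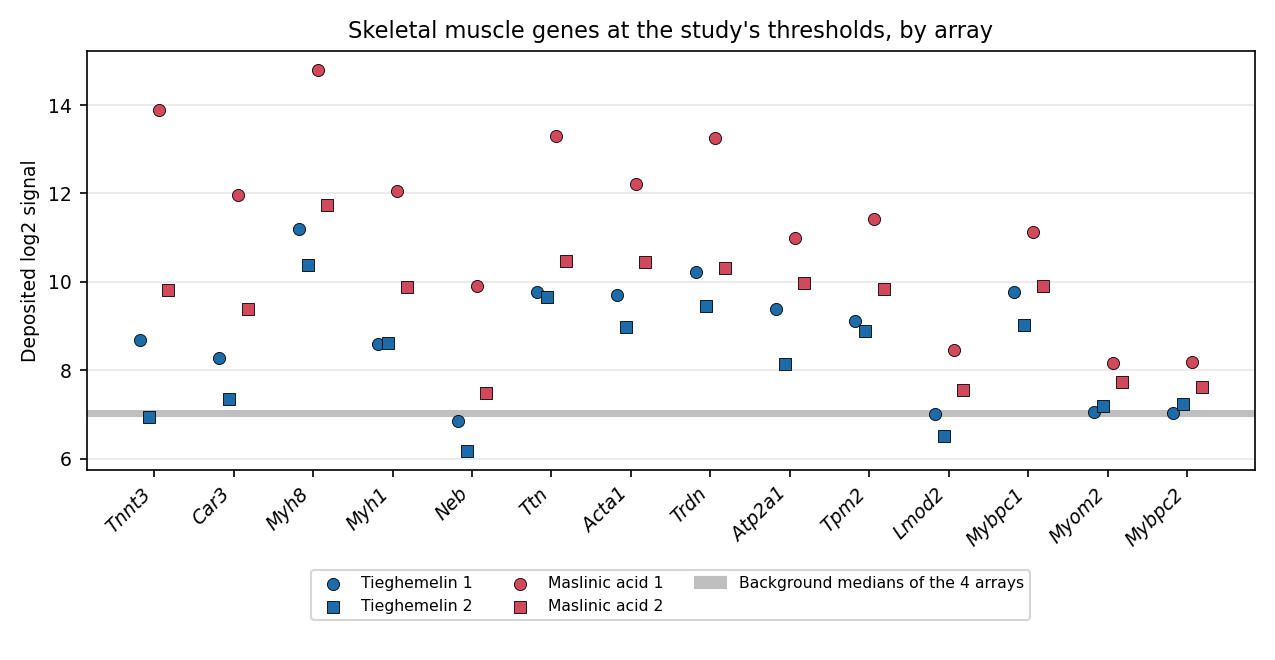
Log2 signal (vertical axis) of the 14 skeletal muscle genes at the study's limits on each of the 4 arrays, with blue for tieghemelin, red for maslinic acid, circles for array 1, squares for array 2 and a grey band for the background medians. Each gene has both blue points below both red points, and the red circle of maslinic acid array 1 is the highest point of each gene, for Tnnt3 at 13.88 against 9.82 on array 2.

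Other abundant muscle transcripts were high on maslinic acid array 1 alone. Mylpf, the regulatory light chain of fast myosin, read 15.20 there, but 8.47 on maslinic acid array 2, below its tieghemelin values of 10.07 and 8.60. Myh4, the heavy chain of the fastest fibres, read 14.14 on maslinic acid array 1, and 9.05 on array 2 against 9.26 and 9.15 with tieghemelin. Myl1, a fast light chain, read 15.27 on maslinic acid array 1 and 10.66 on array 2, next to 10.34 and 10.64 with tieghemelin. Their intervals all included 0, and none met the study's limits. Tpm1, another tropomyosin, had the same form, at 14.68 on maslinic acid array 1 and between 10.33 and 10.85 on the other arrays. Tpm3, a tropomyosin of slow fibres and of many other cells, was the sarcomere member with the greatest difference in the other direction, 0.80, with its highest value, 14.03, on tieghemelin array 2. On maslinic acid array 2, the muscle genes were thus divided between those above both tieghemelin arrays and those within or below their range.

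With maslinic acid array 2 left out, 17 genes had a limma adjusted p under 0.05 (0.0766% of probe sets), all lower with tieghemelin, and 1312 probe sets (5.91%) met the study's limits. Of the 96 muscle probe sets, 41 met them as lower and 0 as higher, against 3.22% and 2.68% of all probe sets. Most belong to the muscle lists, and the 17 genes were Tnnt3, Mylpf, Myh4, Myl1, Car3, Fabp4, Tpm1, Myh8, Ttn, Myh1, Trdn, Neb, Psme4, Acta1, Tnni2, Fhl1 and Ppp1r3a. Of those not described above, Tnni2 is the fast troponin I, Ppp1r3a directs a phosphatase to glycogen in muscle and Psme4 activates the proteasome. With maslinic acid array 1 left out instead, no gene did, while 830 probe sets (3.74%) met the study's limits. In that comparison, 10 of the 96 muscle probe sets met them as lower and 1 as higher, against 1.89% and 1.85% of all probe sets. With the single maslinic acid array the spread is taken from the tieghemelin arrays, so maslinic acid is assumed to vary as tieghemelin did. Mylpf, Myh4, Tnni2, Psme4 and Ppp1r3a were higher, not lower, with tieghemelin when compared with maslinic acid array 2 alone, by 0.86, 0.15, 0.98, 0.37 and 0.11 on the log2 scale.

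Promoter sequences are shown for the muscle genes at the limits that carry the core of the E-box bound by the myogenic factors of the MyoD family, because these genes differed in one direction. RefSeq promoters on GRCm38.p6 were matched for 9 of the 14 genes. The E-box CAGCTG, which reads the same on both strands and was picked after the values had been seen, occurs in the 250 bases before the start of 4 of the 9 (44.4%). It occurs in 32 of 72 genes of the muscle lists (44.4%) and in 14.7% of all 27025 genes with a promoter. Each sequence runs 5′ to 3′ along the gene and ends at the base before the start, with the E-box in capitals.
Acta1: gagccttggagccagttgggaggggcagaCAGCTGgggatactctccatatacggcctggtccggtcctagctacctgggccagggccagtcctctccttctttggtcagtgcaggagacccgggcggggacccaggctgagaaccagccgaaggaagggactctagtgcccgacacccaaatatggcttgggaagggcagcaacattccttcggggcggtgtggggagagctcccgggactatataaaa
Atp2a1: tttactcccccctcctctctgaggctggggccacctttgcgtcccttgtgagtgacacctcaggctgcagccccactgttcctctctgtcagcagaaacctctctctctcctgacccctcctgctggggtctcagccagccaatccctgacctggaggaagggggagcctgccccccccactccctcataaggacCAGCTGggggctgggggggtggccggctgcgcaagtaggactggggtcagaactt
Mybpc1: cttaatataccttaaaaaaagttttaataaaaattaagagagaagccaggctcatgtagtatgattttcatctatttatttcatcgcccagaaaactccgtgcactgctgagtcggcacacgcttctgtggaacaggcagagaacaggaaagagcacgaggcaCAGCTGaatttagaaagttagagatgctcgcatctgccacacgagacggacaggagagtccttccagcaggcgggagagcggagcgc
Tpm2: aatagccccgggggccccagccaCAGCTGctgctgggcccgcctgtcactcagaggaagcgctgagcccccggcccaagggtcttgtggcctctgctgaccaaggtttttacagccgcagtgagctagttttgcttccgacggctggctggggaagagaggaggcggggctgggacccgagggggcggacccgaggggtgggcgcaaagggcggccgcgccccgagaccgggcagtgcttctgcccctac
These stretches lie at chr8:123894776-123895025, chr7:126463074-126463323, chr10:88605153-88605402 and chr4:43523555-43523804, all on the minus strand. The E-box begins at -221 in Acta1, -55 in Atp2a1, -87 in Mybpc1 and -227 in Tpm2, counted from the start. A consensus site of MEF2, another muscle factor, searched on both strands as 1 exact string, was in none of the 9 promoters and in 1 of the 72 (1.39%), against 0.115% of all genes. A match describes these letters only.

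Fat cell markers differed little as a list, apart from Fabp4 and Cd36. Fabp4, the fatty acid carrier of adipocytes, read 15.17 on maslinic acid array 1, and 10.79, 11.27 and 11.25 on tieghemelin arrays 1 and 2 and maslinic acid array 2. Its interval, -4.58 to 0.23, included 0. Cd36, a fatty acid receptor, was also highest on that array, at 9.11, with 6.16 and 7.84 with tieghemelin and 7.09 on maslinic acid array 2. The other adipocyte markers did not share this: over the list of 26 the median difference was 0.04, with 14 higher and 12 lower, and Adipoq, the fat hormone adiponectin, read 8.95 and 8.14 after tieghemelin and 7.95 and 7.87 after maslinic acid. Array 1 of maslinic acid thus stood out in muscle genes, Fabp4 and Cd36 but not in adiponectin. Other genes described here were also highest on it, among them Apoe, Postn, Psme4, Krt5, Ccng1, Ppp3cb and Fkbp5. Sox9 and Krt40 were among those highest on maslinic acid array 2. How much fat each piece of skin contained was not tested.

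Outside the muscle lists, Fhl1, Ppp3cb, Olfr391 and Ccng1 were the named genes with the largest deficits at the study's limits. Fhl1, a LIM-domain protein known from striated muscle, read 8.07 and 7.94 after tieghemelin and 10.83 and 9.47 after maslinic acid, a log2 difference of -2.15 (SE 0.43, 95% interval -3.14 to -1.15). The tieghemelin arrays were close together and each maslinic acid array was above them by over 1 on the log2 scale. Ppp3cb, a catalytic subunit of the calcium-dependent phosphatase calcineurin, read 9.02 and 9.34 after tieghemelin and 11.42 and 10.31 after maslinic acid, a difference of -1.68. Ccng1, cyclin G1, a target of p53, read 9.57 and 10.12 after tieghemelin and 12.24 and 10.40 after maslinic acid, a difference of -1.48. Olfr391, an olfactory receptor gene, was below background on both tieghemelin arrays, at 6.27 and 6.51, and at 7.85 and 8.08 with maslinic acid. It was at least 1.96-fold lower with tieghemelin, and its arrays were alike within each group. Itm2a, a membrane protein of cartilage and T cells, was not above background with tieghemelin and was at least 1.57-fold lower. Apoe, the lipid carrier apolipoprotein E, differed by -1.45, and by -2.53 against maslinic acid array 1 alone and -0.38 against array 2 alone. Musk, the receptor that organises the nerve-muscle junction, was below background on all 4 arrays, so no fold is given.

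Among genes higher with tieghemelin, Hif1a, the oxygen-regulated subunit of the hypoxia factor HIF-1, had the largest difference. It read 9.25 and 10.50 after tieghemelin and 8.37 and 8.71 after maslinic acid, a log2 difference of 1.33 (SE 0.41, 95% interval 0.37 to 2.29, 2.51-fold). The groups did not overlap, and the gap between the tieghemelin arrays was wider than the gap between the nearest arrays of the groups. Zfp273, a zinc finger protein, read 10.67 and 10.01 after tieghemelin and 9.28 and 9.01 after maslinic acid, a difference of 1.20. Tmed3, a carrier protein of the secretory pathway, was the most even of these genes. It read 8.35 and 8.34 after tieghemelin and 7.31 and 7.24 after maslinic acid, a difference of 1.07 (SE 0.25, 95% interval 0.48 to 1.65), and it was 1.03 and 1.10 above maslinic acid arrays 1 and 2. Its gap between groups thus exceeded the gap within either group many times over on these arrays. Haus6, a subunit of the augmin complex that seeds microtubules in the spindle, differed by 1.16, and Nccrp1, an F-box family protein of squamous epithelia, by 1.07.

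Aif1 and S100a9, also among the genes with the largest excess, are given with their lists below. Kcns2, a potassium channel subunit, Igfals, the serum partner of insulin-like growth factors, and Serpinb9d, a protease inhibitor, were below background on both maslinic acid arrays. They were at least 1.59-fold, 1.67-fold and 1.47-fold higher with tieghemelin. Ssxb3, of a family expressed in testis, read 9.10 and 8.76 after tieghemelin and 7.15 and 8.28 after maslinic acid. The olfactory receptor Olfr1189 and the vomeronasal receptors Vmn1r123 and Vmn1r12 differed by 1.17, 1.12 and 1.10. Of the 1429 sensory receptor probe sets, a panel of genes not typical of skin, 24 were higher at the limits (1.68%) and 11 lower (0.77%), against 0.743% and 0.892% of all probe sets. Over the panel 826 were higher and 603 lower, with a median of 0.07. Its direction rested on maslinic acid array 1: the median was 0.14 against array 1 and -0.02 against array 2, where 740 were lower.

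**Figure D3:**
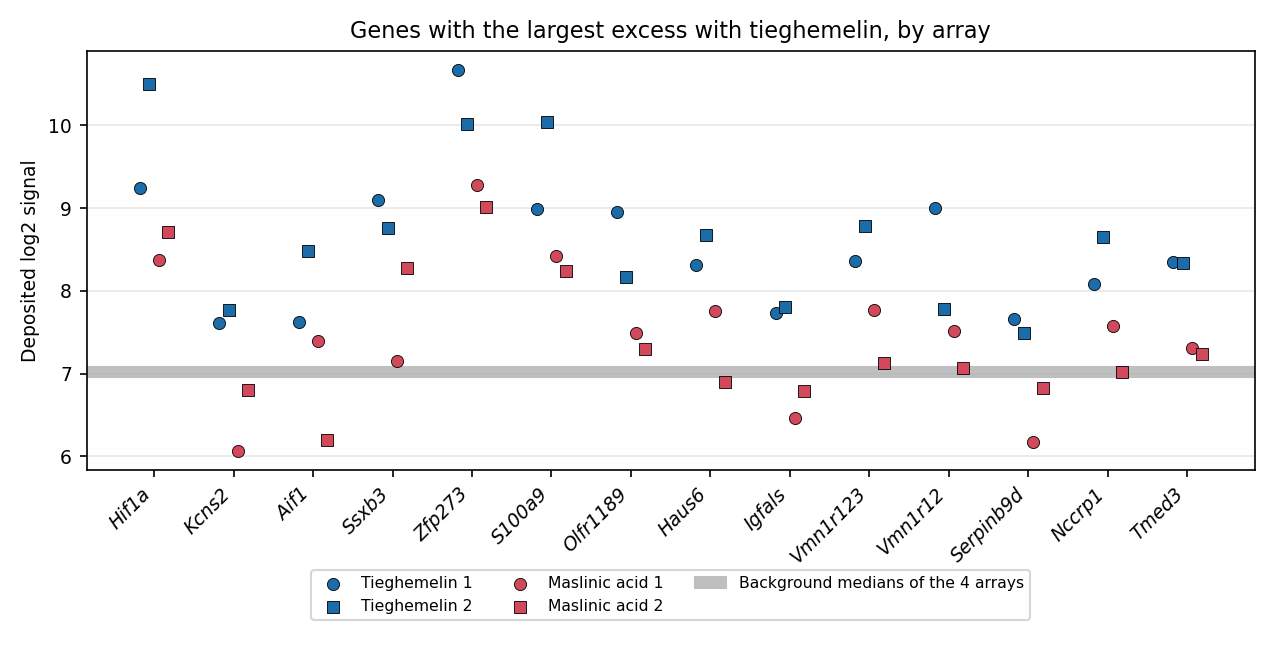
Log2 signal (vertical axis) on each of the 4 arrays for the 14 named genes with the largest excess with tieghemelin, with the same colours and symbols as in the plot of muscle genes and a grey band for the background medians. Both blue points lie above both red points for each gene, with wide gaps between arrays of a group for Hif1a (9.25 and 10.50) and nearly none for Tmed3 (8.35 and 8.34).

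Of the 165 probe sets higher at the limits, 129 were at least 1.7-fold higher than maslinic acid array 1, 96 than array 2, and 60 than each. Of the 198 lower, 150 were at least 1.7-fold lower than array 1, 124 than array 2, and 76 than each. All 363 had the same sign against each maslinic acid array. The limit on p requires this with 2 arrays per group, so it is no separate support. With 1 array left out, between 181 (without tieghemelin array 2) and 252 (without maslinic acid array 2) of the 363 still met the limits in the same direction. The 363 were chosen from these same 4 arrays, so the counts kept with an array left out are no independent support. The higher group was above background on both arrays for 138 of the 165 and 173 of the 198. Outside the muscle lists, 184 lower probe sets remained, with a median of -0.97 against array 1 and -0.87 against array 2. Outside the muscle lists the lower probe sets thus lay at similar medians against both maslinic acid arrays, although they were chosen by the same values.

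Genes of wound-activated and inflamed keratinocytes were more often higher than lower with tieghemelin, by small amounts. Of 31 alarmin and wound response genes, 22 were higher and 9 lower, with a median of 0.21, and 2 met the limits, both higher, against 0.743% of all probe sets. The median was 0.22 against maslinic acid array 1, 0.05 against array 2, where 13 were lower, and 0.39 without tieghemelin array 1, and none met the limits without tieghemelin array 2. S100a9, a subunit of the alarmin calprotectin, read 8.99 and 10.04 after tieghemelin and 8.42 and 8.24 after maslinic acid, a log2 difference of 1.18 (SE 0.37, 95% interval 0.33 to 2.04). Its partner S100a8 read 7.33 and 10.13 after tieghemelin and 7.41 and 7.75 after maslinic acid, so only tieghemelin array 2 was high and the groups overlapped. Lcn2, the iron-binding protein lipocalin 2, met the limits at 0.94, but was above background on tieghemelin array 2 alone. The list summed to 13.50 and 13.85 on the tieghemelin arrays and 13.33 and 13.43 on the maslinic acid arrays. The 33 interferon-stimulated genes held none at the limits and had a median of 0.07. The 31 cytokines and their receptors also held none, where 1.63% of all probe sets met the limits in either direction.

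Macrophage markers were mostly higher with tieghemelin as well. Of 23 markers, 18 were higher and 5 lower, with a median of 0.14 and differences from -0.52 to 1.25. Of the 23, 7 were higher without overlap and 1 was lower without overlap, against 15.7% and 14.9% of all probe sets. Aif1, the calcium-binding protein IBA1 of macrophages, read 7.63 and 8.48 after tieghemelin and 7.40 and 6.19 after maslinic acid, a log2 difference of 1.25. The 6.19 on maslinic acid array 2 was below background, at 7.08, so the size of that difference is uncertain. Aif1 was the marker at the limits, against 0.743% of all probe sets higher. It did not meet them without tieghemelin array 2 or without maslinic acid array 2. Clec10a, a lectin of dermal macrophages, read 8.98 and 8.96 after tieghemelin and 8.40 and 8.29 after maslinic acid, a difference of 0.62 (95% interval 0.04 to 1.21), under 1.7-fold. Lyz2, lysozyme, differed by 0.56 (95% interval -0.07 to 1.19). The summed marker signal was 13.31 and 13.28 after tieghemelin and 12.97 and 13.13 after maslinic acid, so the groups were apart by 0.16 at the nearest arrays. Lists for Langerhans and dendritic cells, T cells, mast cells and neutrophils, endothelium, smooth muscle, Schwann cells and blood held no probe set at the limits. Over all probe sets 1.63% met them in either direction, so lists this short can hold none without differing from the whole. Numbers of immune cells were not measured.

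In the epidermis, Krt5 and Cers3 were the members at the limits, in opposite directions. Krt5, the partner of Krt14 in basal keratinocytes, read 9.27 and 9.77 after tieghemelin and 11.40 and 10.18 after maslinic acid, a log2 difference of -1.27 (SE 0.42). Krt14 differed by -0.12 (95% interval -0.81 to 0.56), so its difference was near 0 where that of Krt5 was not, and the difference between these genes was not tested. Of the 15 basal genes, 10 were lower and Krt5 alone met the limits, against 0.892% of all probe sets. Against maslinic acid array 2 alone 7 of the 15 were lower, and the median turned from -0.14 to 0.02. Cers3, the ceramide synthase that makes the very long ceramides of the skin barrier, read 8.06 and 8.03 after tieghemelin and 6.85 and 7.23 after maslinic acid. It differed by 1.01 (SE 0.27), with close tieghemelin arrays, and was the 1 member at the limits among 55 epidermal differentiation genes, of which 26 were higher and 29 lower, against 0.743% of all probe sets higher at the limits.

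Hair shaft genes at the limits were all lower with tieghemelin, though few and mostly dim. Of 12 hair shaft keratins, 7 were lower and 2 met the limits as lower, against 0.892% of all probe sets: Krt35 and Krt32, early keratins of the hair cuticle and matrix. Without tieghemelin array 1 none met them and the median turned from -0.13 to 0.03. Against maslinic acid array 2 alone, 6 of the 12 were lower and the median was 0.0018. Krt35 read 6.90 and 7.03 after tieghemelin and 7.99 and 7.49 after maslinic acid, a log2 difference of -0.77, close to the limit of 1.7-fold. Krt32 was above background on 1 of the 4 arrays. Krt40, another type I keratin, was brighter, at 8.85 and 9.31 after tieghemelin and 9.71 and 9.91 after maslinic acid. Its difference of -0.73 was under 1.7-fold.

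Of the 50 keratin-associated proteins, which crosslink the keratin filaments of the shaft, 31 were higher and 19 lower. At the limits 3 were lower and 0 higher, against 0.892% and 0.743% of all probe sets, and without tieghemelin array 2 none met them. Krtap22-2 read 7.53 and 7.11 after tieghemelin and 8.83 and 7.98 after maslinic acid, a difference of -1.08. Krtap19-9b read 8.65 and 8.03 after tieghemelin and 9.03 and 9.23 after maslinic acid, a difference of -0.79. Krtap7-1 was above background on maslinic acid array 1 alone. The family's median was 0.08, but -0.03 against maslinic acid array 2 alone, where 26 of 50 were lower. Members of this family are near-identical in sequence and may share probes, so their signals are uncertain gene by gene. The 15 inner root sheath genes held none at the limits, against 1.63% of all probe sets in either direction.

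None of 56 probe sets for signals that drive the hair cycle met the limits, against 1.63% of all probe sets. For 25 of the 56 the 95% interval lay within 1.7-fold either way, against 25.6% of all probe sets. The list was dim: 36 of the 56 were above background on any of the 4 arrays, against 19246 of all 22206. Probe sets at background cannot show whether expression differed. Shh, the hedgehog ligand of the growing follicle, read 9.76 and 9.70 after tieghemelin and 9.96 and 9.55 after maslinic acid, a log2 difference of -0.03 (95% interval -0.66 to 0.60). Vegfa, the vessel growth factor made by growing follicles, read 11.25 and 11.23 after tieghemelin and 11.35 and 11.06 after maslinic acid, a difference of 0.03 (95% interval -0.58 to 0.64). For both, a difference of 1.7-fold lay outside the interval. Gli1, a target of hedgehog signalling, differed by 0.33 (95% interval -0.32 to 0.98), and Wnt10a, a ligand of the follicle epithelium, by 0.25 (95% interval -0.38 to 0.87). Their intervals included differences over 1.7-fold.

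Of 21 bulge and hair germ genes, 14 were lower, with a median of -0.18, and Sox9 alone met the limits, against 0.892% of all probe sets. Against maslinic acid array 2 the median was -0.0077, with 12 of 21 lower, and without tieghemelin array 2 none met the limits. Sox9, a transcription factor of bulge stem cells and the outer root sheath, read 8.66 and 8.58 after tieghemelin and 9.26 and 9.73 after maslinic acid. Its log2 difference was -0.87 (SE 0.28, 95% interval -1.52 to -0.23), and it was greater against maslinic acid array 2, at -1.11, than against array 1, at -0.64. Postn, the matrix protein periostin, was in contrast high on maslinic acid array 1 alone, at 11.63 against 9.24, 9.26 and 9.11. The 17 dermal papilla markers, the 38 cell cycle genes and the 48 collagens and matrix genes held no probe set at the limits, with medians of 0.01, -0.06 and -0.06. Over all probe sets 1.63% met them in either direction. Of 21 pigment genes, 1 met them as lower, against 0.892% of all probe sets, and none did without tieghemelin array 2. It was Gpr143, a melanosome receptor, whose signal was at least 1.35-fold lower with tieghemelin.

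**Figure D4:**
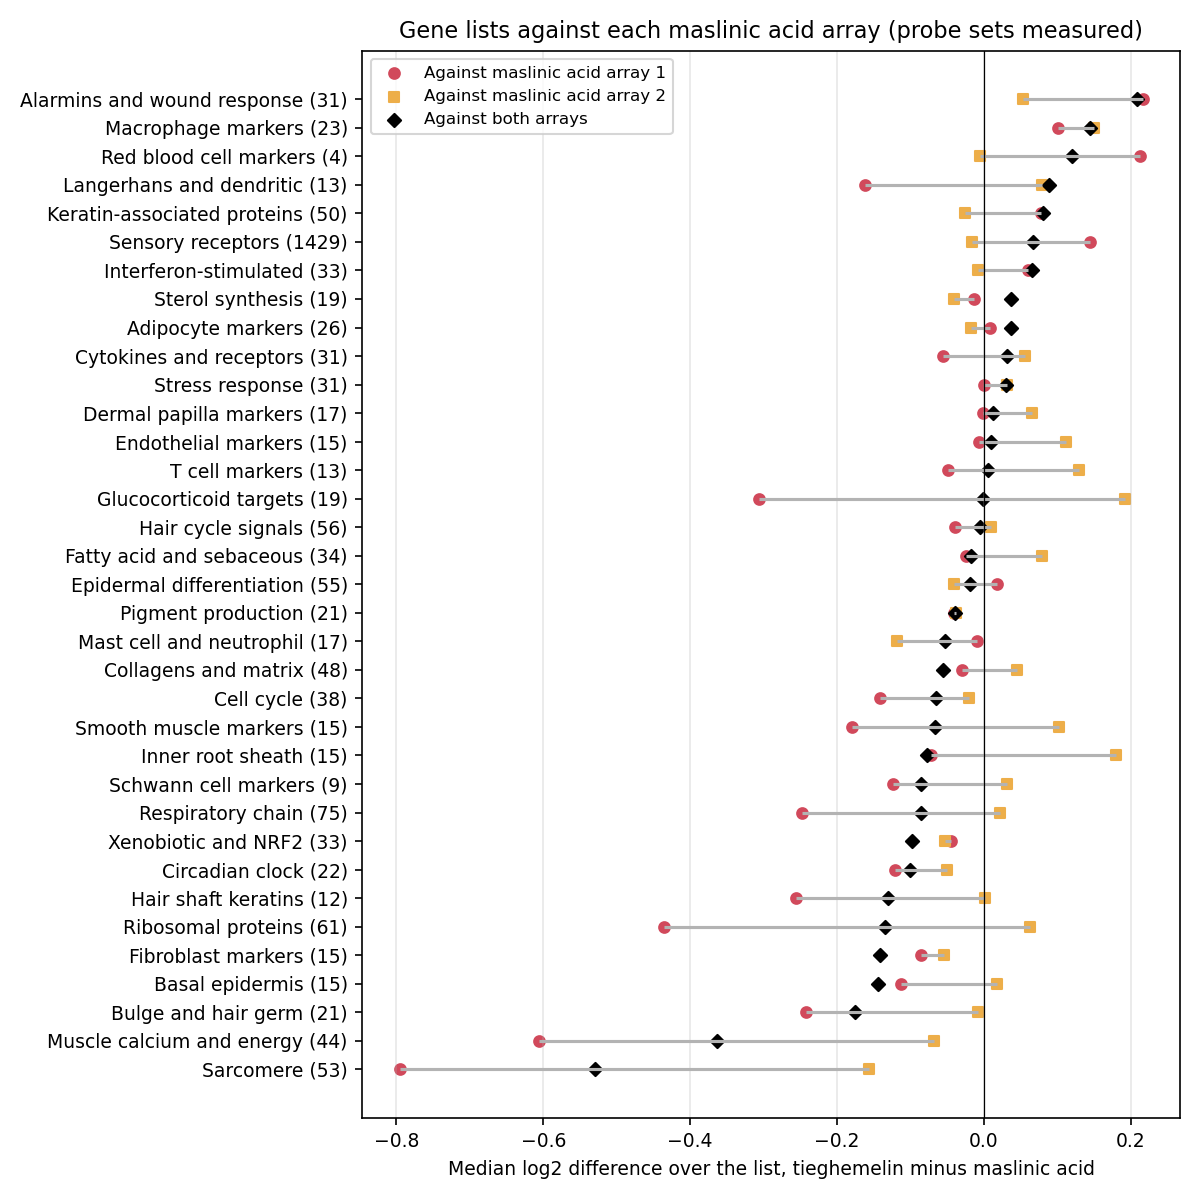
Median log2 difference, tieghemelin minus maslinic acid (horizontal axis), over the probe sets of each of 35 gene lists, with a diamond for both maslinic acid arrays, a circle for array 1 alone, a square for array 2 alone and a grey line joining the last pair. The muscle lists lie farthest left at -0.53 and -0.36 and move to -0.16 and -0.07 against array 2, while the macrophage list is at 0.14 and at 0.10 and 0.15 against the single arrays.

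Lists for hormone response, metabolism and housekeeping split by maslinic acid array. The 61 ribosomal protein genes had a median of -0.44 against maslinic acid array 1 and 0.06 against array 2. None met the limits, against 1.63% of all probe sets in either direction. That list split by tieghemelin array as well, with a median of 0.08 without tieghemelin array 1 and -0.34 without tieghemelin array 2. The 75 respiratory chain genes gave -0.25 and 0.02, with 2 lower at the limits against 0.892% of all probe sets. Of the 75, 51 were lower than maslinic acid array 1 and 37 lower than array 2, against 11075 and 10770 of all 22206 probe sets. Ndufv2, a subunit of complex I, met the limits and was at least 1.55-fold lower, while Atp5pb, of the ATP synthase stalk, met them with signal near background. Of 19 glucocorticoid targets, 9 were higher and 10 lower, with medians of -0.31 against array 1 and 0.19 against array 2. Fkbp5, a co-chaperone of the steroid receptor, read 9.46 and 10.33 after tieghemelin and 11.08 and 10.46 after maslinic acid, a log2 difference of -0.88, with the nearest arrays 0.135 apart. Tsc22d3, the leucine zipper protein GILZ, differed by -0.70 (95% interval -1.47 to 0.07), while Lcn2, also on that list, was higher as given above.

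The clock, sterol and lipid genes had none at the limits, against 1.63% of all probe sets in either direction. Of 22 clock probe sets, 7 were higher and 15 lower, with a median of -0.10. Nr1d1, the clock repressor REV-ERB alpha, read 8.63 and 9.17 after tieghemelin and 8.36 and 8.18 after maslinic acid, a difference of 0.62 (95% interval -0.05 to 1.30). Per1, a repressor that glucocorticoids also induce, differed by -0.56 (95% interval -1.26 to 0.14). The 19 sterol synthesis genes had a median of 0.04, with 10 higher and 9 lower, and the 34 fatty acid and sebaceous genes a median of -0.02. Among 33 genes of xenobiotic and oxidant defence, 14 were higher and 19 lower, and 1 met the limits as lower, against 0.892% of all probe sets. This was Cyp2b19, an arachidonic acid epoxygenase of keratinocytes, at -1.08, which was above background on maslinic acid array 2 alone and did not meet the limits without that array or without tieghemelin array 2. The 31 stress response genes had none at the limits, against the same 1.63% of all probe sets.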

How the data were processed

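Skin RNA was measured on Clariom S Mouse arrays. The deposited log2 values come from the authors' normalization with Transcriptome Analysis Console 4.0.1, per the series' design text. Expression Console and RMA are named in the list of processing tools for the samples, while the labels state only Transcriptome Analysis Console. The genome build is not given in the sources used here, and the log2 scale was taken from the values. Control probe sets (6640) were left out, and no further normalization or filter was applied. Genes were named through the platform annotation, and all 19572 single-symbol probe sets matched RefSeq by gene ID.

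The 2 tieghemelin and 2 maslinic acid arrays were compared with limma 3.58.1 (R 4.3.3; lmFit and eBayes, 2 residual degrees of freedom, 5.72 added by moderation), with Benjamini-Hochberg adjustment over 22206 probe sets. The script was first tested on simulated data. With 1 pair of compounds, no adjustment over pairs was needed. Named genes were the 14 per direction with the largest difference at the study's limits, with no overlap and the higher group above background, since none had an adjusted p under 0.05. Members of each list with the largest differences were added. The comparison, gene lists and rules were chosen with earlier results of these data known. Alternatives were leaving out each array, blocks, other scalings and filters, other arrays in the fit, and other variance estimates. The number of arrays limits the precision.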

Additional observations from a re-analysis of the deposited data

How the results depend on the processing

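The count of 363 probe sets at the study's limits was within 1.5 times of that value with the 6 treated arrays in the fit (347), quantile scaling (363), a common median (369), an above-background filter (306), a trended robust variance (388), array weights (366) and the muscle lists left out (349). It was 68 with all 8 arrays, of which control array 1 correlated with these 4 at 0.518 to 0.538, 150 over probe sets above the median signal and 103 without moderation. The causes were not tested. With the replicate number as a block it was 386, and with the numbers crossed 455, and neither block gave an adjusted call. Deviations of same-numbered arrays correlated at -0.17 over probe sets, so same-numbered arrays did not deviate together. Whether arrays were handled in pairs was not tested. The crossed pairing and the count without muscle lists were added after seeing the data.

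Leaving out 1 array at a time gave 614 to 1312 probe sets at the limits and 0 to 17 adjusted calls, with 17 without maslinic acid array 2. The median of the muscle calcium and energy list ran from -0.61 to -0.0675. Of the 74 genes described, 11 changed sign. Their ranges were -4.94 to 0.15 for Myh4, -5.86 to 0.86 for Mylpf, -2.38 to 0.14 for Postn, -2.81 to 0.11 for Ppp1r3a, -2.90 to 0.37 for Psme4, -2.85 to 0.98 for Tnni2, -0.25 to 2.55 for S100a8, -0.36 to 1.96 for Tpm3, -0.42 to 0.17 for Krt14, -0.23 to 0.17 for Shh and -0.12 to 0.18 for Vegfa. None of the 11 met the study's limits in the comparison of all 4 arrays. Signal near background limits Krt32, Krtap7-1, Atp5pb, Lcn2, Cyp2b19 and Aif1.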
